A study of Mus musculus with 17 samples.

Results

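The genes described here are 10 immediate-early genes and targets of the transcription factor CREB: *Fos*, *Fosb*, *Jun*, *Junb*, *Egr1*, *Nr4a1*, *Nr4a2*, *Npas4*, *Crem* and *Dusp1*. They were chosen by symbol among the 55357 genes of the deposited transcript tables, and their estimated counts were summed over 74 transcripts, of which 39 belong to *Crem*. The RNA came from β cells of male mice, sorted as tdTomato+ cells after their islets had been cultured for 72 hours in 2.8 mM (low) or 16.7 mM (high) glucose. Control cells, called WT in the labels, carried the Cre-inducible tdTomato reporter and, per the methods, the RIP-Cre driver (n = 3 at low and n = 4 at high glucose). *Pcbp2* βKO cells carried in addition floxed *Pcbp2* alleles, Pcbp2Fl/Fl, recombined by RIP-Cre (n = 5 at each concentration). RIP-Cre is driven by the rat insulin promoter, so that deletion and reporter both mark cells in which this promoter has been active. No source used here says whether the replicates came from separate mice or pools, so the p values measure the spread between these samples, which may be technical.

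Immediate-early genes are transcribed within minutes of a stimulus without the need for new protein synthesis. In β cells, glucose metabolism closes ATP-sensitive potassium channels, the membrane depolarises and calcium enters, and calcium and cAMP activate kinases that phosphorylate CREB and the ternary complex factors bound to serum response elements. Many of the products are transcription factors (the AP-1 subunits, EGR1, the NR4A receptors, NPAS4), while others shut the signal down, such as the MAP kinase phosphatase DUSP1 and the short CREM repressors known as ICER. CREB binds the cAMP response element (CRE), whose full palindrome is TGACGTCA and whose half-site is TGACG.

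By the GENCODE annotation of GRCm39, *Fos* lies at chr12:85520658-85524047, *Nr4a1* at chr15:101151980-101172681, *Dusp1* at chr17:26724564-26781102 and *Jun* at chr4:94937271-94940459. *Fosb* lies at chr7:19036621-19043976, *Junb* at chr8:85701113-85705359, *Npas4* at chr19:5034382-5040344 and *Nr4a2* at chr2:56996842-57014331. Sequence upstream of the start site was available for 8 of the 10 genes in the RefSeq promoter table (assembly GRCm38.p6, 250 bases before to 50 after the start). Searched on both strands, a TGACG half-site was present in 7 of these 8 windows and in 20.8% of the 32851 windows of the table. The full palindrome, which itself holds 2 overlapping half-sites, was present in 1 of 8, that of *Dusp1*, and in 1.79% of all windows. None of the 8 held the AP-1 site TGANTCA (7.81% of all windows) or a CArG box, the core of the serum response element (1.63%), and 3 held TATAAA (13.6%). *Nr4a1* and *Nr4a2* had the most half-sites, with 4 each, and *Jun* had none. A match describes the letters of this window and does not show binding. The 250 upstream bases of 4 genes, 5′ to 3′ with half-sites in capitals, are shown for *Fos*, whose response was the clearest, a gene with many half-sites (*Nr4a1*), the gene with the palindrome (*Dusp1*) and the gene with no half-site (*Jun*).
*Fos*, chr12:85473640-85473889, plus strand: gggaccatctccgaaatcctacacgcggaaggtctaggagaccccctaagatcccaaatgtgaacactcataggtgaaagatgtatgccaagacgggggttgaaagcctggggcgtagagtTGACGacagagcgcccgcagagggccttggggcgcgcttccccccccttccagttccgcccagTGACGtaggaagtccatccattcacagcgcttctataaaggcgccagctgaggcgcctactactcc
*Nr4a1*, chr15:101266596-101266845, plus strand: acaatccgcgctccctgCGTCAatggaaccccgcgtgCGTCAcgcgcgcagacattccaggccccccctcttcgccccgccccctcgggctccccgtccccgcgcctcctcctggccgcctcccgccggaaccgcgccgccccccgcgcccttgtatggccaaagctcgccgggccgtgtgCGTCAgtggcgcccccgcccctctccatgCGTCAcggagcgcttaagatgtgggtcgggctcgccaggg
*Dusp1*, chr17:26508473-26508722, minus strand: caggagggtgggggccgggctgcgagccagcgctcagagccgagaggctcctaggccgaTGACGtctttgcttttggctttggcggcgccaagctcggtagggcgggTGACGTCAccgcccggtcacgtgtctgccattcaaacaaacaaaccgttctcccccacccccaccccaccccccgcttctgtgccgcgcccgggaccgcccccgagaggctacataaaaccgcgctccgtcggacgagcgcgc
*Jun*, chr4:95052223-95052472, minus strand: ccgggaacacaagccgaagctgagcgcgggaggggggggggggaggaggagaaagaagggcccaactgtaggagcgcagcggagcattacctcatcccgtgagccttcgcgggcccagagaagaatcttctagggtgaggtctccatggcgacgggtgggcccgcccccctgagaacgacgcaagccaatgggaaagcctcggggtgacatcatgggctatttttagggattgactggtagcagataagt

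Counted from the start site, with -1 the base before it, the first bases of the half-sites lay at -129 and -66 in *Fos* and at -233, -213, -69 and -40 in *Nr4a1*. In *Dusp1* they lay at -191, -143 and -140, the last 2 being the arms of the palindrome.

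Total estimated counts ranged from 47385513 to 82419400 per sample. *Pcbp2* itself averaged 62.5 ± 11.4 CPM (estimated counts scaled to library size, SD, n = 3) in control cells at low glucose and 17.4 ± 1.39 (n = 5) in *Pcbp2* βKO cells, and 40.4 ± 5.27 (n = 4) and 7.66 ± 1.68 (n = 5) at high glucose, with no overlap between genotypes. On the first principal component of all tested genes, control replicate 4 and *Pcbp2* βKO replicates 4 and 5 at high glucose had scores of 9.9, 21.4 and 33.2, between the low-glucose samples (all below -42) and the other 6 high-glucose samples (all above 90). These 3 libraries are named wherever a result differs without them. Summed over 10 β cell markers the level was 67330 to 123200 CPM at low and 272000 to 526100 CPM at high glucose. Almost all of this sum came from *Ins1*, *Ins2* and *Iapp*, so it says little about the other β cell markers. The 5 acinar, 4 endothelial and 4 stellate markers each summed to at most 1.23 CPM. Markers of other endocrine cells and macrophages were present and moved with glucose: 4 α cell markers, almost all *Gcg*, had medians of 1401 and 328 CPM at low and high glucose in control cells and 5326 and 450 CPM in *Pcbp2* βKO cells. For 4 macrophage markers the medians were 32.1 and 7.87 CPM in control cells and 98.5 and 2.97 CPM in *Pcbp2* βKO cells. The 3 δ cell and 2 PP cell markers had lower medians at high glucose too, and 4 ductal markers summed to 384 to 1183 CPM with overlap between the groups. The part of these cells in the results below was not tested, and in bulk samples fewer cells of a type and less RNA per cell cannot be told apart.

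Compared with low glucose, high glucose raised 9 of the 10 genes in control cells and 8 in *Pcbp2* βKO cells, and lowered none. The threshold was a fold change over 1.5 with an adjusted p under 0.05 (edgeR quasi-likelihood test, Benjamini-Hochberg over 22784 tested genes). By this rule 7.15% of all genes were higher and 6.69% lower with glucose in control cells, and 13.4% higher and 10.4% lower in *Pcbp2* βKO cells. All 10 genes passed the filter on low counts. Their median log2 fold change was 3.62 in control cells and 2.56 in *Pcbp2* βKO cells, against 0.04 and 0.01 over all tested genes. Every high-glucose sample exceeded every low-glucose sample for 9 of 10 genes in control cells, where this was so for 11.8% of all genes, and for 7 of 10 in *Pcbp2* βKO cells, against 10.9%. The groups overlapped for *Jun* in control cells, and for *Jun*, *Fosb* and *Npas4* in *Pcbp2* βKO cells.

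**Figure D1:**
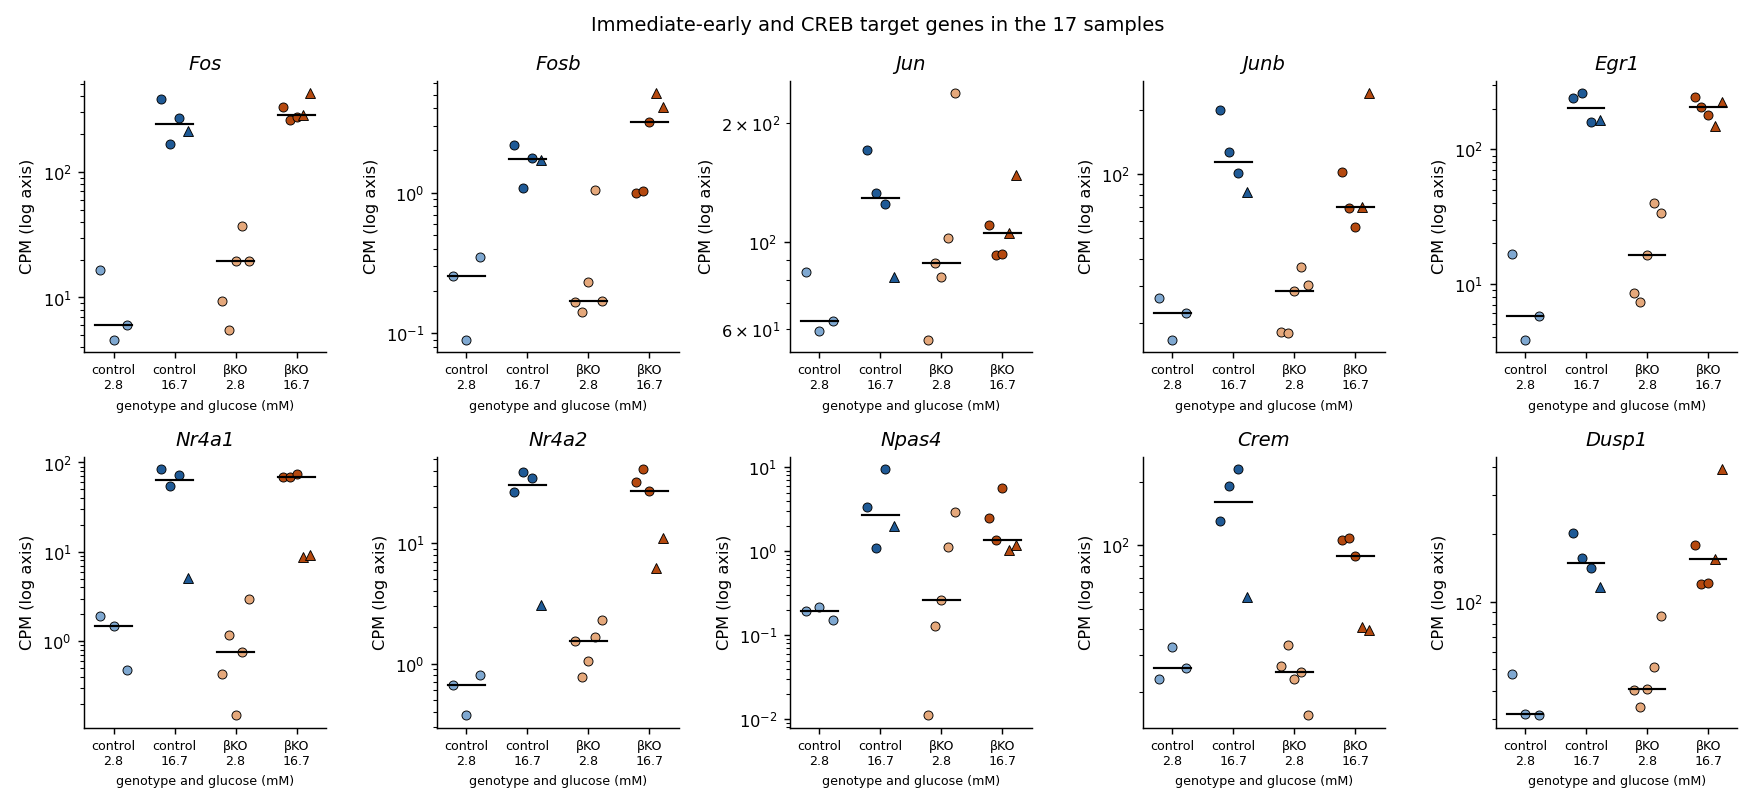
CPM (log axes) of each gene in the 17 samples, by genotype and glucose concentration in mM, with 1 point per sample, triangles for control replicate 4 and *Pcbp2* βKO replicates 4 and 5 at 16.7 mM, and lines for group medians. *Fos* lay between 168 and 422 CPM in the 9 high-glucose samples and at most at 36.8 CPM in the 8 low-glucose samples, whereas *Jun* overlapped between the concentrations.

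*Fos*, the inducible partner of JUN proteins in AP-1, showed the clearest separation. In control cells it measured 16.6, 4.63 and 6.04 CPM in replicates 1 to 3 at low glucose, and 382, 168, 269 and 212 CPM in replicates 1 to 4 at high glucose. *Pcbp2* βKO cells had 9.45, 5.50, 19.4, 36.8 and 19.6 CPM at low glucose, and 330, 260, 275, 286 and 422 CPM at high glucose. All high-glucose samples of both genotypes were above all low-glucose samples, including the 3 libraries apart. The log2 fold change was 4.82 ± 0.61 (SE, adjusted p = 0.000288 by edgeR) in control cells and 4.12 ± 0.46 (adjusted p = 9.67e-06) in *Pcbp2* βKO cells. The control value rose to 5.59 without replicate 1 at low glucose, the highest of its group. *Fosb*, whose product has both a full and a truncated form, was expressed far lower. Its samples at low glucose held 7 to 60 estimated counts (0.0902 to 1.04 CPM) and those at high glucose 57.7 to 381 (0.992 to 5.10 CPM). It rose in both genotypes (2.85 ± 0.76, adjusted p = 0.0166 in control cells, and 3.08 ± 0.61, adjusted p = 0.000933 in *Pcbp2* βKO cells, by edgeR). The call in control cells was lost without replicate 1 (adjusted p = 0.0599) or replicate 2 (adjusted p = 0.0917) at low glucose. For *Pcbp2* βKO cells the value was 4.00 without replicate 4 at low glucose, whose 1.04 CPM stood far above the other 4 samples (0.141 to 0.233 CPM). The retained-intron transcript Fosb-204 held 45.6% of the estimated counts of *Fosb* on average.

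*Junb* rose with glucose and *Jun* did not pass the test. *Junb* measured 26.2, 16.8 and 22.5 CPM at low and 199, 127, 101 and 82.6 CPM at high glucose in control cells. The *Pcbp2* βKO samples had 18.2, 18.04, 28.3, 36.8 and 30.2 CPM at low and 103, 69.6, 56.7, 70.2 and 239 CPM at high glucose, the highest value being that of replicate 5. Its log2 fold changes were 2.55 ± 0.46 (adjusted p = 0.00182) and 2.03 ± 0.36 (adjusted p = 0.000373, edgeR). *Jun* was already at 59.3 to 83.6 CPM in control cells at low glucose, and at 81.2 to 171 CPM at high glucose. Among *Pcbp2* βKO samples it ranged from 56.5 to 238 CPM at low and from 92.3 to 148 CPM at high glucose, with replicate 5 the highest at both. The log2 fold changes of *Jun* were 0.89 ± 0.36 (adjusted p = 0.107) and -0.04 ± 0.30 (adjusted p = 0.935). In control cells, *Jun* was called higher with the replicate number as a block (1.07, adjusted p = 6.1e-05 by edgeR on the control samples, and 0.90, adjusted p = 0.0191 on all samples). It was also called without control replicate 4 at high glucose (1.07, adjusted p = 0.0469). On the TPM scale *Jun* fell in *Pcbp2* βKO cells by 0.90 (limma on log2(TPM + 0.1), adjusted p = 0.0061), where the median of all genes was -0.71, so the call depended on the scaling. Its estimate in *Pcbp2* βKO cells also changed sign without replicate 5 at low glucose (0.42).

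*Egr1* encodes a zinc finger factor under serum response elements. It measured 16.6, 3.84 and 5.78 CPM at low and 243, 261, 161 and 165 CPM at high glucose in control cells, a log2 fold change of 4.57 ± 0.62 (adjusted p = 0.00041, edgeR). In *Pcbp2* βKO cells it measured 8.54, 7.27, 16.4, 39.7 and 33.5 CPM at low and 247, 207, 179, 150 and 224 CPM at high glucose, a change of 3.26 ± 0.46 (adjusted p = 5.82e-05). High-glucose levels overlapped between the genotypes, and *Pcbp2* βKO replicates 4 and 5 had the highest levels at low glucose. Without control replicate 1 at low glucose the control value was 5.43. *Npas4*, a calcium-induced factor best known from neurons, was close to the detection limit. Its low-glucose samples held 14 to 17 estimated counts in control cells and 1 to 295 in *Pcbp2* βKO cells, so the latter group alone spanned 0.0112 to 2.95 CPM. At high glucose it measured 3.35, 1.10, 9.54 and 2.02 CPM in control cells and 1.03 to 5.67 CPM in *Pcbp2* βKO cells. The log2 fold changes were 4.39 ± 1.25 (adjusted p = 0.0228) and 1.39 ± 0.86 (adjusted p = 0.248, edgeR). *Npas4* lost its call in control cells without any 1 of the 3 low-glucose replicates (adjusted p from 0.076 to 0.0882) and without replicate 3 at high glucose (3.50, adjusted p = 0.0678). It gained a call in *Pcbp2* βKO cells without replicate 5 at low glucose (2.68, adjusted p = 0.0273), and was at 0.76 without replicate 3 at high glucose.

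The orphan nuclear receptor genes *Nr4a1* and *Nr4a2*, CREB targets with roles in β cell mass and metabolism, had the largest log2 fold changes in control cells and a split among the high-glucose samples. *Nr4a1* measured 1.90, 1.495 and 0.481 CPM at low and 84.4, 55.2, 72.8 and 5.09 CPM at high glucose in control cells. Its *Pcbp2* βKO values were 0.424, 1.19, 0.148, 0.763 and 2.95 CPM at low and 68.4, 69.1, 74.3, 8.75 and 9.32 CPM at high glucose. Control replicate 4 and *Pcbp2* βKO replicates 4 and 5 thus had *Nr4a1* far below the other 6 high-glucose samples, yet above all 8 low-glucose samples. *Nr4a2* measured 0.671, 0.374 and 0.799 CPM at low and 26.5, 39.0, 34.5 and 3.05 CPM at high glucose in control cells. Its values in *Pcbp2* βKO cells were 1.54, 0.774, 1.05, 1.67 and 2.30 CPM at low and 31.9, 41.2, 27.1, 6.18 and 10.97 CPM at high glucose, with the same 3 libraries lowest. The log2 fold changes of *Nr4a1* were 5.40 ± 1.14 (adjusted p = 0.00468) and 5.38 ± 0.89 (adjusted p = 0.000233), and those of *Nr4a2* 5.38 ± 0.82 (adjusted p = 0.000696) and 4.00 ± 0.60 (adjusted p = 9.5e-05, edgeR). Without the 3 libraries apart they were 5.76 and 5.96 for *Nr4a1* and 5.73 and 4.47 for *Nr4a2*, all called. *Nr4a1* in *Pcbp2* βKO cells was at 6.2 without replicate 5 at low glucose.

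*Crem*, which encodes activators and repressors that bind the CRE, shared this split, and *Dusp1* did not. *Crem* measured 23.0, 32.8 and 25.9 CPM at low and 131, 192, 231 and 56.9 CPM at high glucose in control cells. In *Pcbp2* βKO cells it measured 26.8, 33.6, 23.1, 24.8 and 15.5 CPM at low and 106, 109, 88.5, 40.7 and 39.5 CPM at high glucose. *Dusp1*, by contrast, reached 201, 156, 141 and 116 CPM in control cells at high glucose from 47.6, 31.5 and 31.3 CPM at low glucose. The *Pcbp2* βKO samples went for *Dusp1* from between 33.9 and 86.8 CPM to 179, 120, 121, 156 and 390 CPM, with replicate 5 the highest at both concentrations. Log2 fold changes were 2.49 ± 0.44 (adjusted p = 0.00178) and 1.63 ± 0.35 (adjusted p = 0.00162) for *Crem*, and 2.06 ± 0.40 (adjusted p = 0.00278) and 1.93 ± 0.32 (adjusted p = 0.000217, edgeR) for *Dusp1*. On the scale of log2(TPM + 1), *Crem* in *Pcbp2* βKO cells was at 0.76 and lost its call (limma, adjusted p = 0.056), where the median of all genes was -0.33. Among the 10 genes, *Nr4a1*, *Nr4a2* and *Crem* had all 3 libraries apart below the other 6 at high glucose, which was so for 10.3% of 13079 tested genes with a mean of at least 1 CPM. For 8 of the 10, the exceptions being *Jun* and *Npas4*, all 3 were still above every low-glucose sample. The samples with low *Nr4a1* and *Crem* thus had *Fos*, *Fosb*, *Egr1*, *Junb* and *Dusp1* levels that overlapped those of the other 6.

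**Figure D2:**
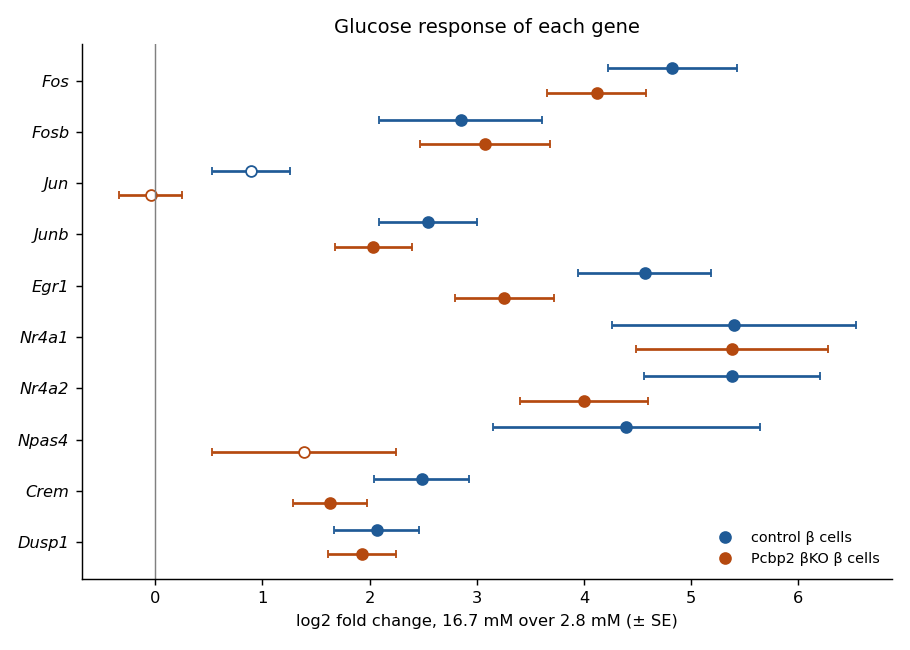
Log2 fold change of each gene at 16.7 mM over 2.8 mM glucose, with bars for the SE, in control cells (blue) and *Pcbp2* βKO cells (orange); filled points were called and open points were not. The *Nr4a1* values of 5.40 and 5.38 nearly coincide, those of *Npas4* (4.39 and 1.39) lie farthest apart, and *Jun* lies nearest to 0.

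Levels can be compared between genes only per length, in TPM, the length-scaled unit of the files. In control cells at low glucose the order of mean TPM was *Crem* (23.9), *Jun* (20.7), *Dusp1* (20.4), *Junb* (12.5), *Fos* (4.72), *Egr1* (2.70), *Nr4a1* (0.502), *Nr4a2* (0.440), *Npas4* (0.0620) and *Fosb* (0.0612). Ranges over samples overlapped between *Crem*, *Jun* and *Dusp1*, between *Fos* and *Egr1*, between *Nr4a1* and *Nr4a2*, and between *Npas4* and *Fosb*. At high glucose in the same cells *Crem* (89.2) and *Fos* (71.5) led, followed by *Dusp1* (51.4), *Junb* (40.3), *Egr1* (36.8), *Jun* (21.6), *Nr4a1* (12.8), *Nr4a2* (5.40), *Npas4* (0.694) and *Fosb* (0.266). With *Pcbp2* deleted, *Fos* (84.0) and *Dusp1* (61.7) were above *Crem* (41.5) at high glucose. In control cells at high glucose each gene overlapped its neighbour in this order except *Egr1* and *Jun*. In *Pcbp2* βKO cells the ranges of *Fos* and *Crem* did not overlap, while that of *Dusp1* overlapped both.

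For loss of *Pcbp2*, none of the 10 genes passed the threshold at either glucose concentration in the fits of all samples without a block, by edgeR, DESeq2 or limma, and 1 had an unadjusted p under 0.05 at each (*Egr1* at low and *Crem* at high glucose). At low glucose 2.04% of all genes were called and at high glucose 1.71%, and the interaction between genotype and glucose called 1 gene (*Ins1*), 0.00439% of all. At low glucose 8 of 10 estimates were above 0 in *Pcbp2* βKO cells, with a median of 0.63 on the log2 scale against 0.03 over all genes. With the replicate number as a block the median was 0.35 on all samples and 0.05 on the low-glucose samples alone, where *Npas4* turned to -0.77. Without a block the estimates were largest for *Npas4* (2.23 ± 1.12, adjusted p = 0.424), *Egr1* (1.27 ± 0.52, adjusted p = 0.286), *Nr4a2* (1.25 ± 0.68, adjusted p = 0.477) and *Fos* (0.99 ± 0.49, adjusted p = 0.412, edgeR). The genotypes overlapped for all 10 genes, and *Pcbp2* βKO replicates 4 and 5 gave the highest values of *Egr1* and *Npas4*. Macrophage and α cell markers were also higher in the *Pcbp2* βKO samples at low glucose, as given above, and their part in these estimates was not tested.

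At high glucose 3 of 10 estimates were above 0 and the median was -0.18, against 0.01 over all genes. This median ranged from -0.41 without control replicate 4 to 0.05 without control replicate 1, and was 0.03 without *Pcbp2* βKO replicate 4, so it had no stable direction. With the replicate number as a block on the high-glucose samples alone, *Junb* was called lower (-0.73, adjusted p = 0.0352 by edgeR). *Crem* had the largest difference, at -0.99 ± 0.36 (adjusted p = 0.227, edgeR), with means of 152.7 ± 75.98 CPM (SD, n = 4) in control and 76.81 ± 34.42 CPM (n = 5) in *Pcbp2* βKO cells. The groups overlapped through control replicate 4, and without that sample *Crem* was called lower (-1.28, adjusted p = 0.0333). Without all 3 libraries apart, the value was -0.87 (adjusted p = 0.0755 by edgeR). The paper, whose model had a batch term that is left out here, lists *Crem* among its PCBP2-regulated genes. It places *Crem* in a cluster whose rise with glucose was weaker in *Pcbp2*-deficient cells. For *Fos* and *Egr1* the estimates were 0.29 ± 0.43 and -0.04 ± 0.45, SEs that leave room for differences in either direction. The interaction, tested as the difference between the glucose responses, was below 0 for 9 of 10 genes, the exception being *Fosb*, and *Nr4a1* (-0.02) changed sign without the 3 libraries apart (0.20). Its median was -0.78 against -0.01 over all genes, with the largest value for *Npas4* (-3.00 ± 1.42) which alone had an unadjusted p under 0.05 (0.0482), and an adjusted p of 1 for every member by edgeR. The 2 glucose responses share no sample, while the interaction and the knockout contrasts are built from the same 4 groups and are not independent of each other.

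**Figure D3:**
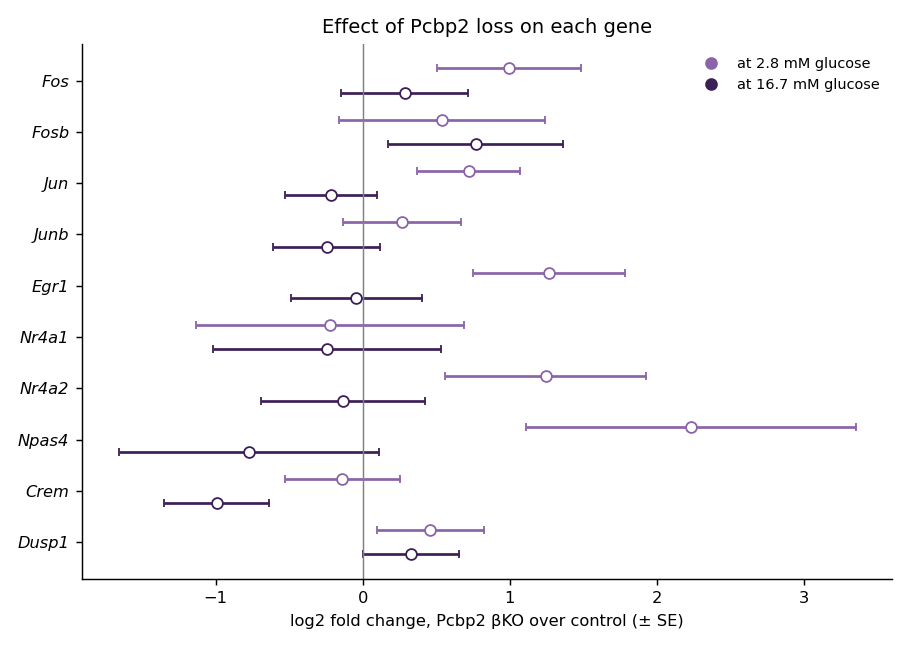
Log2 fold change of each gene in *Pcbp2* βKO over control cells at 2.8 mM (light) and 16.7 mM (dark) glucose, with bars for the SE; all points are open because none was called. The *Crem* value of -0.99 at 16.7 mM is the farthest below 0, and 8 of 10 values at 2.8 mM are above 0.

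*Crem* has 39 annotated transcripts in the files. By the GENCODE annotation of GRCm39 (chromosome 18, minus strand, 3260980 to 3337748), 22 of them start within 12.3 kb of the most upstream start, 10 start 27.9 to 38.3 kb downstream of it, and 7 start 56.0 to 56.7 kb downstream. All 19 upstream-start transcripts that reach that far have an intron over the 7 internal starts. The internal-start transcripts code for short proteins (285 to 375 coding bases). Coding transcripts of the upstream class had 168 to 1071 coding bases, with a median of 849. *Crem* is known for an intronic, CREB-driven promoter that gives the ICER repressors, which keep the DNA-binding domain and lack the activation domain. Whether the 7 transcripts come from that promoter was not tested. The grouping by start was made after the values had been seen, and the split of reads among transcripts is an estimate by Kallisto, so the sums below are given without a test.

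Transcripts with an internal start made up 24.4%, 18.8% and 29.6% of the estimated counts of *Crem* in control cells at low glucose, and 68.7%, 58.8%, 58.1% and 48.8% at high glucose. Their share in *Pcbp2* βKO cells was 20.2%, 15.4%, 12.5%, 24.5% and 27.5% at low and 56.3%, 53.9%, 64.5%, 52.3% and 53.1% at high glucose. Every high-glucose sample had a larger internal share than every low-glucose sample, in both genotypes, including the 3 libraries apart. In CPM the internal class went from 5.61, 6.15 and 7.67 to 89.9, 113, 134 and 27.7 in control cells. In *Pcbp2* βKO cells it went from 5.40, 5.16, 2.89, 6.07 and 4.27 CPM to 59.8, 58.8, 57.1, 21.3 and 21.0 CPM. At high glucose the genotypes overlapped through control replicate 4 (27.7 CPM), which lay below the 3 highest *Pcbp2* βKO samples (57.1 to 59.8 CPM). The other control samples lay at 89.9 to 134 CPM, and the difference between genotypes was not tested. The upstream class averaged 19.3 ± 3.88 CPM (SD, n = 3) at low and 58.7 ± 31.7 CPM (n = 4) at high glucose in control cells, and 19.0 ± 5.67 and 31.8 ± 15.4 CPM (n = 5 each) in *Pcbp2* βKO cells.

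**Figure D4:**
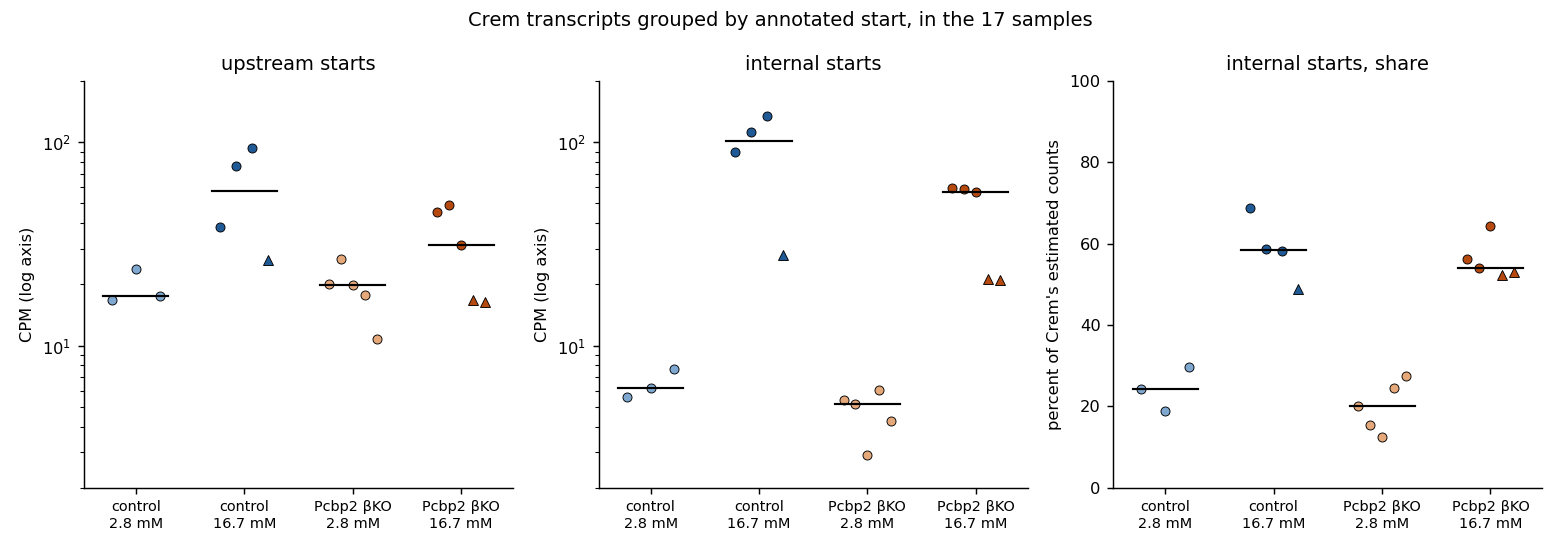
*Crem* transcripts grouped by annotated start in the 17 samples, as CPM of upstream-start transcripts (left, log axis), CPM of internal-start transcripts (middle, log axis) and the percentage of the estimated counts of *Crem* from internal starts (right); triangles are control replicate 4 and *Pcbp2* βKO replicates 4 and 5 at 16.7 mM, and lines are medians. The internal share is at most 29.6% in the low-glucose samples and at least 48.8% in the high-glucose samples.

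Tested singly among 65504 transcripts, 29 *Crem* transcripts passed the filter. With glucose in control cells 8 were called higher and 1 lower, where 2.22% of all transcripts were higher and 2.46% lower by edgeR. The *Pcbp2* βKO counts were 11 higher and 3 lower, against 7.57% and 6.24% of all transcripts. Of the 7 internal-start transcripts, 6 were higher in control cells and 7 in *Pcbp2* βKO cells. This class was formed after the values had been seen, and reads are split among its transcripts by Kallisto. The 2 counts therefore describe the class and do not test it. The most abundant of them, Crem-229 (18.2% of the estimated counts of *Crem* on average), rose by 4.02 ± 0.69 (adjusted p = 0.00537) and 3.17 ± 0.53 (adjusted p = 0.000885, edgeR) on the log2 scale. Crem-219, Crem-206 and Crem-218, which held 10.7%, 8.89% and 5.73%, rose in both genotypes as well, by 2.72 to 4.06. The 2 upstream-start transcripts that held over 5% parted ways. Crem-233 (18.6%) rose by 3.75 ± 0.85 (adjusted p = 0.0201) and 2.89 ± 0.65 (adjusted p = 0.00677). Crem-203 (6.60%) was at 0.09 ± 0.53 (adjusted p = 0.959) and -0.45 ± 0.44 (adjusted p = 0.585, edgeR). The count in control cells was 3 without replicate 2 at low glucose. By edgeR no *Crem* transcript was called for the knockout at low glucose (0.504% of all transcripts), at high glucose (0.392%) or for the interaction (0.00153%). At an unadjusted p under 0.05 there were 5, 4 and 2, and the Wald test of DESeq2 called 2, 1 and 1, all lower.

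**Figure D5:**
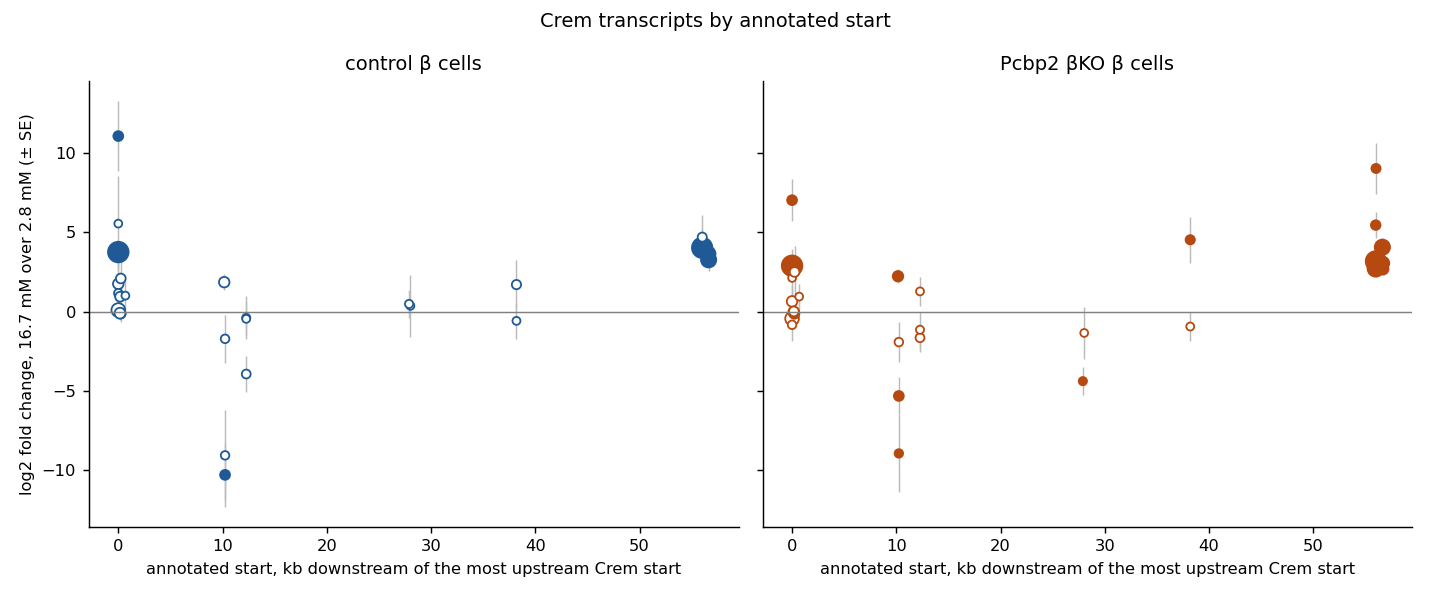
Log2 fold change of 29 *Crem* transcripts at 16.7 mM over 2.8 mM glucose, with bars for the SE, against the distance of the annotated start from the most upstream *Crem* start in kb, in control cells (left) and *Pcbp2* βKO cells (right); filled points were called and point area grows with the transcript's share of *Crem*. The 7 transcripts that start beyond 55 kb all lie above 2.6, while those upstream lie on both sides of 0. The grouping by start was made after the values had been seen.

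The genes whose pattern was most like that of *Crem* over the 17 samples, by Pearson correlation of log2 CPM among 10014 tested genes with a mean of at least 5 CPM, were *Prkar1a* (0.970), *Pgap1* (0.968), *Dhrs7* (0.968), *Spcs1* (0.966) and *Hspa13* (0.965). Within the 9 high-glucose samples these correlations were 0.918 to 0.971. For *Fos* they were *Rnf138rt1* (0.975), *Jarid2* (0.966), *Txnip* (0.965), *Rspo4* (0.960) and *Nphp4* (0.959), and 0.386 to 0.666 within the high-glucose samples. The points share libraries and the contrast between glucose concentrations, so these values are descriptions.

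Other genes of the same response followed in part. Their counts are read against the shares of all genes called, which were 7.15% higher and 6.69% lower with glucose in control cells, and 13.4% and 10.4% in *Pcbp2* βKO cells. Of 15 tested immediate-early factors outside the 10 genes, 7 were higher and 2 lower with glucose in control cells, and 6 and 4 in *Pcbp2* βKO cells, with median log2 fold changes of 1.26 and 0.66. *Ier2* (2.58 ± 0.32 and 1.61 ± 0.25) and *Arc* (2.53 ± 0.61 and 2.03 ± 0.48) rose most, whereas *Myc*, a growth regulator (-1.72 ± 0.51 and -2.16 ± 0.44), and *Klf6* (-0.95 ± 0.24 and -1.11 ± 0.20) fell in both genotypes. Among 13 inducible feedback regulators 6 were higher in each genotype, and 0 and 1 lower. *Spry4*, an antagonist of receptor tyrosine kinase signalling (3.85 ± 0.62 and 3.81 ± 0.49), *Dusp6*, the ERK phosphatase (3.36 ± 0.78 and 3.05 ± 0.61), and *Sik1*, the kinase that inactivates CREB coactivators (2.73 ± 0.47 and 2.49 ± 0.37), led, and *Rgs2* fell in *Pcbp2* βKO cells (-1.11 ± 0.27). *Dusp6* and *Spry4* were, like *Nr4a1*, lower in all 3 libraries apart (3.14 to 6.02 and 4.21 to 5.82 CPM) than in the other 6 high-glucose samples (23.8 to 44.7 and 11.4 to 15.5 CPM). So were *Ier2* and *Fosl2*, while *Sik1*, *Arc* and *Myc* overlapped. This split held for 10.3% of tested genes with a mean of at least 1 CPM. The 3 libraries were set apart by a score that separates the glucose concentrations, so the split is not independent of the glucose response. Of 7 other AP-1 and ATF factors 1 was higher in control cells and 2 in *Pcbp2* βKO cells, with *Fosl2* (1.55 ± 0.45 and 1.81 ± 0.36) higher in both.

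Genes of the upstream machinery were also counted. Of 10 tested CREB family members and coactivators none was higher and 2 were lower in both genotypes, *Creb1* (-0.60 ± 0.15 and -0.81 ± 0.13) and its coactivator *Crtc2* (-0.65 ± 0.15 and -0.66 ± 0.13). Of 28 calcium and MAP kinase pathway genes 1 was higher and 1 lower in control cells, and 1 and 2 in *Pcbp2* βKO cells. *Elk3*, a ternary complex factor, was the one that rose (1.16 ± 0.29 and 1.30 ± 0.24). No gene of these 5 lists was called for the knockout at either concentration. Heat shock genes, which cell handling can raise in sorted material, were counted too. Of 12 such genes, 0 were higher and 8 were lower in control cells, and 10 were lower in *Pcbp2* βKO cells. Their summed level was 9041 to 14720 CPM in the low-glucose and 3332 to 5452 CPM in the high-glucose samples, with no overlap. This sum was mostly *Hspa8* and *Hsp90ab1*, with means of 7330 and 2387 CPM in control cells at low glucose. *Hspa1a* and *Hspa1b* had means of 33.9 and 74.4 CPM in the same group. The relation of the sum to the 10 genes, and the part of cell handling in them, was not tested.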

How the data were processed

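RNA sequencing of sorted β cells was analysed in 17 samples, grouped by the genotype and glucose concentration in their labels. Per the methods, the authors pseudoaligned read pairs of polyA RNA libraries to the GRCm39 mouse transcriptome with Kallisto. They deposited, for each transcript and sample, estimated counts, which are not normalized, and TPM, which is scaled to effective length and has an equal sum in all samples. The effective transcript length that the authors deposited served to rebuild counts from TPM. Versions and the strand setting are not given in the sources used here.

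Estimated counts were summed per gene, rounded, filtered with filterByExpr and scaled with TMM. A model of the 4 group means over all samples was fitted and tested by quasi-likelihood in edgeR 4.0.16 (R 4.3.3), with Benjamini-Hochberg adjustment over 22784 genes or 65504 transcripts. Calls needed a fold change over 1.5 and an adjusted p under 0.05. The SE is the estimate divided by the square root of its F. The batch term of the authors' model was left out, since the batch of each sample is not given in the sources used here. CPM used TMM-scaled library sizes. DESeq2 1.42.0 and limma 3.58.1 were alternatives, as were other scalings, no filter, the replicate number as a block and leaving out replicates. The fits were tested on simulated data.

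Replicate numbers in the titles recur between groups. Deviations from the group mean correlated across genes at 0.123 to 0.258 in the 3 same-numbered pairs of control samples at low and high glucose. All were above the limit of 0.1 set for possible pairing. These correlations are weak, and no source used here says what a replicate number stands for, so pairing of these samples is possible but not established. The values and counts reported nevertheless come from the model without a block, and the blocked values stand beside them where a call changed. In every other pair of groups at least 1 correlation was below that limit. The members and gene lists were chosen with earlier results of these data known. Named from each list were at most 4 called genes per comparison and direction, those with the largest change among genes with a mean of at least 1 CPM. *Crem* transcripts were named where they held at least 5% of its estimated counts. Promoter sequences came from RefSeq (GRCm38.p6), and *Crem* starts from GENCODE vM39 (GRCm39), which held all 39 transcripts. Sequences upstream of *Crem* and *Egr1* were not used here. With 47385513 to 82419400 estimated counts per sample, counting error was largest for *Fosb* and *Npas4* at low glucose.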

Additional observations from a re-analysis of the deposited data

Results flagged for a closer look

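In 30 groups of 4 or 5 samples, 3 held a sample far from the rest of its group on the log2 CPM scale by Dixon's test at 95%, which chance gives in about 1 of 20 groups. *Nr4a1* in control replicate 4 at high glucose was at 5.09 CPM, with the gap to the nearest sample covering 0.849 of the group's range. *Nr4a2* in the same sample was at 3.05 CPM (0.849 of the range). *Fosb* in *Pcbp2* βKO replicate 4 at low glucose was at 1.04 CPM (0.763 of the range). The first of these samples also had the lowest *Crem* of its group, and its first principal component score lay nearest to the low-glucose samples among the 9 high-glucose samples.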

How the results depend on the processing

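The log2 fold changes called for the 10 genes kept their sign in every alternative run. For single *Crem* transcripts only the numbers called were compared between runs, and genes of the other lists were not followed. With glucose, 7 to 10 of the 10 genes were called higher in control cells and 6 to 9 in *Pcbp2* βKO cells over the alternatives, and the 3 limma fits called *Jun* lower in the latter. Calls were lost in limma on log2(TPM + 1), where the median of all genes was -0.24 in control and -0.33 in *Pcbp2* βKO cells. They were also lost in limma on log2(TPM + 0.1) without the filter (medians -0.16 and -0.25). With the filter, limma on log2(TPM + 0.1) lost no call, with medians of -0.56 and -0.71. *Fosb* and *Npas4* in control cells also lost calls when 1 replicate was left out. With the replicate number as a block, 1 gene was called in *Pcbp2* βKO cells at high glucose, *Junb* (-0.73, adjusted p = 0.0352 by edgeR on those groups). Same-numbered samples of those groups correlated at 0.047 to 0.3545, not all above the limit set for possible pairing. In the glucose comparisons of the 10 genes the block changed only the call of *Jun* in control cells. It called 12 and 10 *Crem* transcripts in control cells, on all samples and on the groups compared, and 13 and 12 in *Pcbp2* βKO cells. DESeq2 called 2, 1 and 1 *Crem* transcripts for the knockout at low and high glucose and the interaction, and 13 with glucose in control cells against 9. Leaving out 1 replicate, the members called for the knockout at high glucose numbered 0 to 1, the *Crem* transcripts called with glucose in control cells 3 to 12, and those for the knockout at high glucose 0 to 1.

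None of the estimates that changed sign was called before or after. The farthest apart were those of *Npas4* at low glucose, 2.23 without and -0.77 with the block on the groups compared. Under the block on all samples and on only the groups compared, *Crem* at low glucose in *Pcbp2* βKO over control cells was 0.31 and 0.02, *Fosb* -0.10 and -0.26, *Dusp1* at high glucose -0.07 and -0.09, and the glucose response of *Jun* in *Pcbp2* βKO cells 0.08 and 0.11. On only the groups compared, *Junb* at low glucose was -0.04, and *Nr4a1* and *Nr4a2* at high glucose 0.19 and 0.23; *Nr4a1* at low glucose was 0.21 with the block on all samples. Without the libraries apart, *Dusp1* at high glucose was -0.25, and the interactions of *Fosb* and *Nr4a1* were -0.51 and 0.20. The interaction of *Nr4a1* was 0.00 without the filter, and *Nr4a1* at low glucose 0.01 on log2(TPM + 1). *Nr4a2* at high glucose was 0.16 and 0.10 in limma with pseudocounts of 0.1 and 1, 0.16 without the filter, and 0.09 on counts rebuilt from TPM.

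Leaving out 1 replicate, the knockout difference at low glucose ranged from -0.27 to 0.02 for *Crem*, -0.39 to 0.96 for *Fosb* and -1.05 to 0.17 for *Nr4a1*. At high glucose it ranged from -0.10 to 0.48 for *Dusp1*, -0.15 to 0.09 for *Egr1*, -0.77 to 0.05 for *Junb*, -1.40 to 0.12 for *Npas4*, -0.64 to 0.05 for *Nr4a1* and -0.52 to 0.13 for *Nr4a2*. The interaction ranged from -0.56 to 0.15 for *Dusp1*, -0.19 to 1.15 for *Fosb* and -0.42 to 0.81 for *Nr4a1*, and the glucose response of *Jun* in *Pcbp2* βKO cells from -0.21 to 0.42. The cause of these changes was not tested. The knockout differences of *Npas4* and *Nr4a1* had the largest SEs (1.12 and 0.91 at low, 0.88 and 0.77 at high glucose).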

Other observations

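Retained-intron transcripts held part of the estimated counts of *Dusp1*. In control cells 2 such transcripts held 6.24% to 22.4% at low and 20.9% to 31.7% at high glucose. In *Pcbp2* βKO cells they held 8.87% to 18.7% at low and 17.8% to 37.5% at high glucose. The ranges overlapped in both genotypes, and no test was made. For *Crem* the 1 retained-intron transcript held at most 1.15% in every sample. The share was larger for *Npas4*, whose 1 such transcript held 32.7% to 67.9% in control and 21.85% to 66.65% in *Pcbp2* βKO cells at high glucose. At low glucose, where *Npas4* had few counts, it held 0% to 77.4% and 0% to 100%.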
